A study of Homo sapiens with 6 samples.

Results

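RHOA, RHOB and RHOC, 3 closely related small GTPases, were followed in A375, an established human melanoma cell line. The genes were taken by symbol, and each of the 3 stood on 1 line of a table of 29790 genes. The series held 3 libraries of A375 cells exposed for 24 h to 3 µM fluvastatin and 3 libraries of untreated A375 cells grown alongside, numbered 0, 1 and 2 in each group. Values were read as FPKM, read fragments per transcript length and library size, although no unit is given with them. On that reading, levels of different genes can be set side by side. The series used a single cell line, and the labels do not say whether the triplicates were separate cultures; the p-values therefore cover the spread among these 6 libraries alone, and that spread may be technical.

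These GTPases switch between a GTP-bound form that engages effectors and a GDP-bound form that does not. Guanine nucleotide exchange factors (GEFs) load GTP, GTPase-activating proteins (GAPs) end the signal, and GDP dissociation inhibitors (GDIs) hold the protein in the cytosol. RHOA, RHOB and RHOC end in a CAAX box, whose cysteine receives an isoprenoid lipid made by the mevalonate pathway, and statins such as fluvastatin block that pathway at HMG-CoA reductase. RHOA and RHOC receive geranylgeranyl, whereas RHOB can receive either farnesyl or geranylgeranyl. RHOA drives stress fibres and contractility, RHOC is known for its part in melanoma invasion, and RHOB, a short-lived protein of endosomes and the plasma membrane, is encoded by an immediate early gene.

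The ends of the coding sequences carry the lipid site that ties these genes to the drug's target pathway. The last 30 coding bases before the stop codon, from GENCODE 29 transcripts on GRCh38, are shown 5′ to 3′, with the 4 codons of the CAAX box in capitals.
RHOA: gggaagaaaaaatctgggTGCCTTGTCTTG
RHOB: aacggctgcatcaactgcTGCAAGGTGCTA
RHOC: aacaagcgtcggaggggcTGTCCCATTCTC
These stretches lie at chr3:49360212-49360241 on the minus strand, chr2:20448024-20448053 on the plus strand and chr1:112701543-112701572 on the minus strand. Each capitalised part opens with a cysteine codon, TGC in RHOA and RHOB and TGT in RHOC. The coding sequences are alike enough to ask whether reads could be shared. RHOA and RHOB were identical at 72.3% of aligned coding positions, RHOA and RHOC at 79.8%, and RHOB and RHOC at 77.5%. No stretch of 50 bases was shared between annotated transcripts of any pair, and the longest shared run was 35 bases, between RHOB and RHOC.

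Every one of the 3 genes had more transcript after fluvastatin. RHOB (ENSG00000143878.9; chromosome 2, 20447074 to 20449445, plus strand), whose single annotated transcript has 1 exon, was at 371.2, 404.8 and 348.2 FPKM in fluvastatin replicates 0, 1 and 2, against 8.82, 11.0 and 9.3 FPKM in control replicates 0, 1 and 2. Its mean was 374.7 ± 28.5 FPKM with fluvastatin and 9.71 ± 1.14 FPKM in controls (SD, n = 3 each), a 38.6-fold difference. RHOC (ENSG00000155366.16; chromosome 1, 112701106 to 112707434, minus strand; 19 annotated transcripts) was at 312.7, 368.8 and 329.3 FPKM in fluvastatin libraries, against 127.6, 120.1 and 116.8 FPKM in controls. The RHOC means were 336.9 ± 28.8 and 121.5 ± 5.49 FPKM (fluvastatin and control, SD, n = 3 each), 2.77-fold apart. RHOA (ENSG00000067560.10; chromosome 3, 49359145 to 49412998, minus strand; 6 annotated transcripts) was at 585.0, 647.9 and 649.3 FPKM in fluvastatin libraries, against 291.5, 272.4 and 272.3 FPKM in controls. The RHOA means were 627.4 ± 36.8 and 278.7 ± 11.1 FPKM (fluvastatin and control, SD, n = 3 each), 2.25-fold apart. For each of the 3 genes the lowest fluvastatin library lay above the highest control, as it did for 21.9% of all tested genes, and the groups did not overlap in either direction for 44.8% of them.

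**Figure D1:**
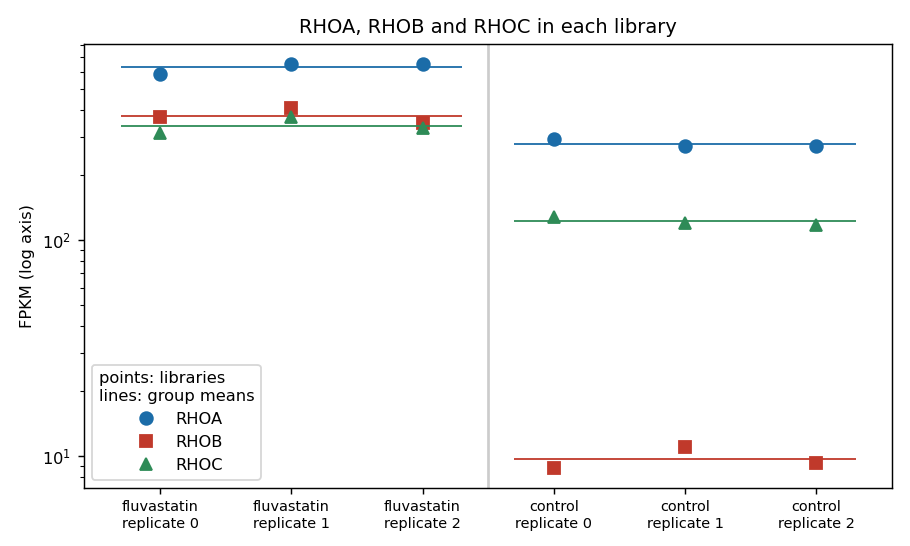
FPKM on a log axis of RHOA (circles), RHOB (squares) and RHOC (triangles) in the 3 fluvastatin libraries, left, and the 3 control libraries, right, with horizontal lines at the group means. RHOB sits between 348.2 and 404.8 FPKM with fluvastatin and between 8.82 and 11.0 FPKM in controls, while RHOA and RHOC are high in both groups and higher with fluvastatin.

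The 3 genes were tested with limma on log2(FPKM + 1) among 14344 genes that reached 1 FPKM in 3 or more libraries. The words rose and fell are kept for a Benjamini-Hochberg adjusted p under 0.05. RHOB rose by 5.14 ± 0.11 (log2 fold change ± SE; limma adjusted p = 6.70e-06). RHOC rose by 1.46 ± 0.10 (limma adjusted p = 3.69e-04) and RHOA by 1.17 ± 0.09 (limma adjusted p = 5.28e-04). All 3 passed, where 14.1% of all tested genes rose, and all 3 rose at least 2-fold on this scale, where 2.69% of tested genes did. The steps between low values gave relative depths of 1.27, 1.51 and 1.4 for fluvastatin replicates 0, 1 and 2 and 1.0, 1.18 and 0.97 for control replicates 0, 1 and 2, so depth and treatment cannot be told apart. With depth as a covariate RHOB was at 4.84 ± 0.21 and stayed past the threshold (limma adjusted p = 0.00291). RHOA at 1.10 ± 0.20 (limma adjusted p = 0.0857) and RHOC at 1.32 ± 0.21 (limma adjusted p = 0.0711) did not pass. Their estimates stayed near those of the main fit, while their SEs were larger. Fragment numbers per gene are not given by FPKM, and in bulk cells a rise in every cell and a larger rise in some of them cannot be told apart.

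On the scale of FPKM gained, the 3 genes stood closer together than their folds do. The mean difference, fluvastatin minus control, was 365.0 FPKM for RHOB, 348.7 FPKM for RHOA and 215.4 FPKM for RHOC, which ranked 15, 18 and 42 among the 14344 tested genes. By fold, RHOB ranked 1 among genes that rose, had a mean of at least 5 FPKM with fluvastatin and were not at 0 in all controls, against ranks of 146 for RHOC and 263 for RHOA. By log2 fold change RHOB ranked 4, and the 3 genes above it were non-coding RNAs listed at 0 in all controls. In level among all 29790 genes, RHOB stood at ranks 221 to 245 in fluvastatin libraries, against 7766 to 8517 in controls. RHOA stood at ranks 132 to 148 with fluvastatin, against 308 to 322 in controls, and RHOC at 242 to 268, against 849 to 931.

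**Figure D2:**
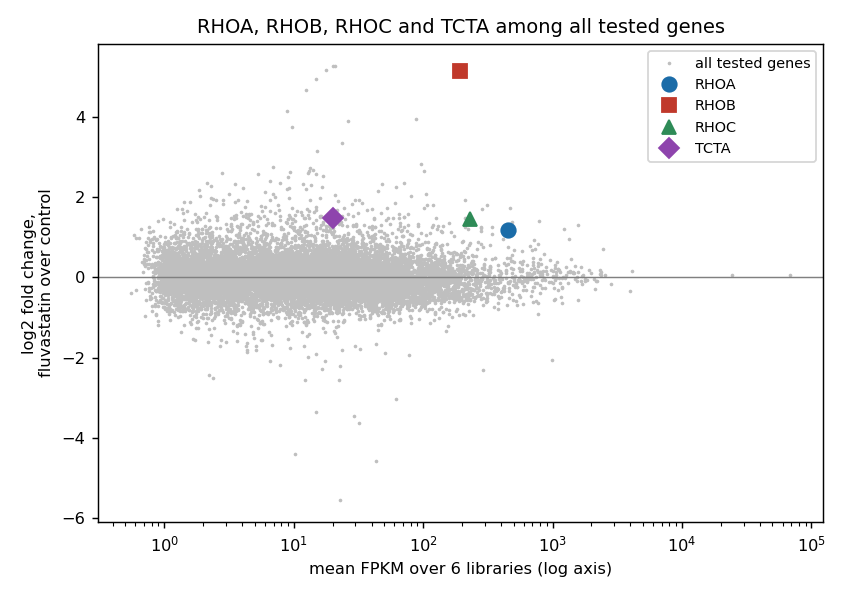
Log2 fold change, fluvastatin over control on log2(FPKM + 1), against mean FPKM over the 6 libraries (log axis) for the 14344 tested genes (grey), with RHOA, RHOB, RHOC and the neighbour of RHOA, TCTA, marked. RHOB lies apart at 5.14, while RHOC at 1.46 and RHOA at 1.17 are on the upper side among highly expressed genes.

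The makeup of the RHOA, RHOB and RHOC transcript pool differed between the groups. The summed level of the 3 genes was 1268.9, 1421.5 and 1326.7 FPKM in fluvastatin libraries, against 427.9, 403.5 and 398.5 FPKM in controls, 3.27-fold apart by the means. RHOB made up 29.3%, 28.5% and 26.2% of that sum in fluvastatin libraries, against 2.06%, 2.73% and 2.33% in controls. RHOA held 46.9% ± 1.81 with fluvastatin and 68.0% ± 0.436 in controls, and RHOC 25.1% ± 0.705 with fluvastatin and 29.6% ± 0.271 in controls (SD, n = 3 each). The pool was thus over 3 times as large and its RHOA and RHOC shares were smaller, although the level of each was higher.

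**Figure D3:**
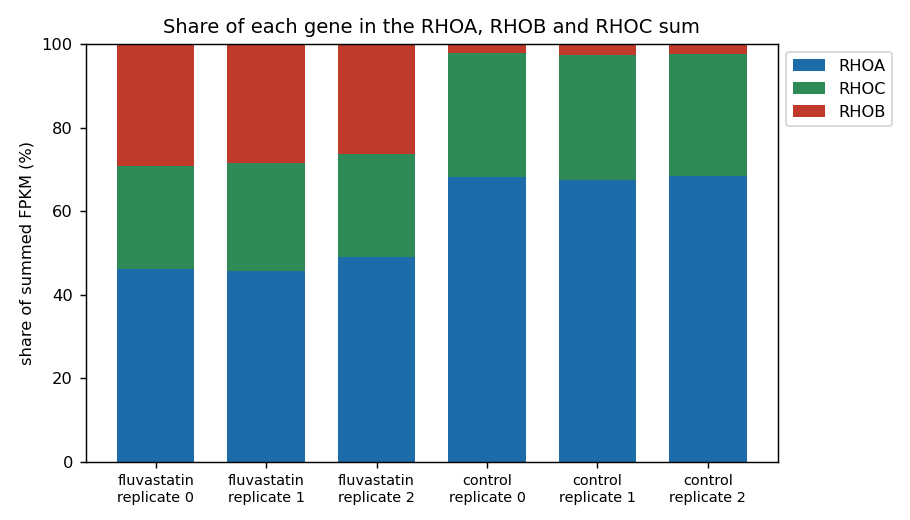
Share of the summed FPKM of RHOA, RHOC and RHOB in each library, fluvastatin left and control right, with each bar adding to 100%. The RHOB segment takes 26.2% to 29.3% with fluvastatin and 2.06% to 2.73% in controls.

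Ratios within a library were compared to see whether the 3 genes changed unequally. They were taken on FPKM + 1, so a common scaling of that library leaves them nearly, not exactly, unchanged. The log2 ratio of RHOB to RHOA was -0.74 ± 0.13 with fluvastatin and -4.71 ± 0.19 in controls (SD, n = 3 each), a difference of 3.97. The log2 ratio of RHOB to RHOC was 0.15 ± 0.08 with fluvastatin and -3.52 ± 0.19 in controls, a difference of 3.67. The log2 ratio of RHOC to RHOA was -0.90 ± 0.08 with fluvastatin and -1.19 ± 0.02 in controls, a difference of 0.29, so RHOC gained slightly more than RHOA in proportion. For the share, the sum and the 3 ratios alike the groups did not overlap, and the two-sided exact permutation test gave p = 0.1 for each (adjusted p = 0.1 over the 5 values), which is the smallest that 3 against 3 libraries allow. In controls the order was RHOA, RHOC, RHOB in 3 of 3 libraries. With fluvastatin it was RHOA, RHOB, RHOC in 3 of 3 libraries. RHOB and RHOC lay closest there: their ranges across libraries overlapped, while the log2 ratio of RHOB to RHOC was 0.25, 0.13 and 0.08 within fluvastatin replicates 0, 1 and 2.

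Promoter sequence was looked at because the 3 genes rose together and unequally. RefSeq (GRCh38.p14) start sites were matched for all 3 genes. The 250 bases before the RHOB start, chr2:20446824-20447073 on the plus strand, which no GENCODE 29 exon covers, are printed with each CCAAT or its reverse complement ATTGG in capitals, since this motif, bound by the factor NF-Y, is a known element of the RHOB promoter.
RHOB: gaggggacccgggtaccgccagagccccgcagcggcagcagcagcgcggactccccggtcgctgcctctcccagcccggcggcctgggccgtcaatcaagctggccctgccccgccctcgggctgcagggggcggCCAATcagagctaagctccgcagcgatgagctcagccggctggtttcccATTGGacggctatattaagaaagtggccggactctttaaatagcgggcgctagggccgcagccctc
The motif begins 115 bases before the start on the plus strand and 66 bases before it on the minus strand. Of 35116 windows of this length before annotated starts, 32.0% held CCAAT on either strand and 9.5% held it at least 2 times. The RHOA window held 1 copy, beginning 166 bases before its start on the opposite strand, and none of the 3 RHOC windows held these letters. TATAAA, searched on both strands, was found 1 time in the RHOA window, 0 times in the RHOB window and 0 times in the RHOC windows, and 10.7% of all windows held it. GGGCGG, the GC box, occurred 3 times in the RHOA window, 2 times in the RHOB window and up to 5 times in an RHOC window. Of all windows, 42.6% held it and 24.3% held it at least 2 times. The windows of the 3 genes were 65.6% to 83.2% G or C, against a median of 58.0% over all windows. The RHOC windows at chr1:112707128-112707377 and chr1:112706939-112707188 overlap. CACCC, a core read by Krüppel-like factors, was found in 2 of the 3 RHOC windows, 4 times in one and 2 times in another. It was found 0 times in the RHOA window and 0 times in the RHOB window. Of all windows, 54.7% held it and 23.1% held it at least 2 times. GGAATG, the TEAD core, and the AP-1 site TGANTCA were in none of these windows, against 11.9% and 6.6% of all windows. These matches describe the letters of the windows and show no binding.

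Genes beside the 3 loci differed in what they did. TCTA, a small gene on the opposite strand whose annotated start lies 446 bases from that of RHOA and whose span overlaps longer RHOA transcripts, was at 28.7, 32.3 and 29.2 FPKM in fluvastatin libraries, against 9.17, 10.2 and 11.3 FPKM in controls. It rose by 1.47 ± 0.11 on the log2 scale (limma adjusted p = 4.35e-04; adjusted p = 0.0767 with depth as a covariate), 2.94-fold by the means. Whether the counting used strand is not given in the sources used here, so reads of TCTA and RHOA in the overlap cannot be told apart. With fluvastatin TCTA was at 28.7 to 32.3 FPKM and RHOA at 585.0 to 649.3 FPKM. In controls TCTA was at 9.17 to 11.3 FPKM and RHOA at 272.3 to 291.5 FPKM. Whether reads of either gene added to the value of the other was not tested. On the other side of RHOA, GPX1, which encodes glutathione peroxidase 1 and lies 544 bases away on the same strand, was at 178.9 ± 26.3 FPKM with fluvastatin and 227.7 ± 22.7 FPKM in controls (SD, n = 3 each; limma adjusted p = 0.101). RHOA-IT1, an RNA annotated within a RHOA intron on the same strand, was at 2.12 ± 0.213 FPKM with fluvastatin and 1.47 ± 0.488 FPKM in controls (limma adjusted p = 0.132; 0.0256 without control replicate 2). Beyond TCTA, AMT and RP11-949J7.8, reached at most 2.93 FPKM in any library.

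A lincRNA starting 1596 bases after the end of RHOB on the same strand, AC023137.2 in the table, was at 0.46, 0.386 and 0.418 FPKM in fluvastatin libraries and was listed at 0 in all 3 controls. It was too low to be tested, and an exact 0 in such a table can be a failed estimate. Beside RHOC, the helicase gene MOV10, which lies 359 bases away on the opposite strand, was at 48.6 ± 2.29 FPKM with fluvastatin and 40.4 ± 3.51 FPKM in controls (limma adjusted p = 0.0925). RP11-426L16.10, a coding gene annotated over RHOC on the same strand, reached at most 0.268 FPKM in any library, and PPM1J, 2559 bases away on the same strand, at most 0.58 FPKM.

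Regulators of RHOA, RHOB and RHOC moved in both directions. Of 19 GEFs tested, 5 rose and 2 fell, 12 missed the threshold, and the median log2 fold change was 0.28. NET1, an exchange factor for RHOA and RHOB, was at 148.8, 159.4 and 153.6 FPKM in fluvastatin libraries, against 65.1, 72.9 and 75.7 FPKM in controls, and rose by 1.10 ± 0.09 (limma adjusted p = 7.76e-04). PLEKHG5 rose by 1.04 ± 0.10, with means of 30.4 FPKM with fluvastatin and 14.3 FPKM in controls (limma adjusted p = 0.00119). ARHGEF3, which acts on RHOA and RHOB but not on RHOC, rose by 0.68 ± 0.13 (6.28 FPKM with fluvastatin and 3.52 FPKM in controls; limma adjusted p = 0.0101), while ARHGEF28 fell to 14.2 FPKM with fluvastatin, against 22.1 FPKM in controls (limma adjusted p = 0.00832). ARHGEF2, a microtubule-bound exchange factor, was at 164.7 ± 6.69 FPKM with fluvastatin and 125.0 ± 20.8 FPKM in controls (limma adjusted p = 0.0676). It passed in 4 alternatives, among them without control replicate 2 (0.0441). Of the 19, 4 passed without fluvastatin replicate 0 or control replicate 1.

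Among 19 GAPs tested, 3 rose and 4 fell, 12 missed the threshold, and the median log2 fold change was -0.06, against -0.01 over all tested genes. ARHGAP18 had 13.4, 12.2 and 13.0 FPKM in fluvastatin libraries, against 24.6, 22.7 and 26.7 FPKM in controls, and fell by 0.89 on the log2 scale (limma adjusted p = 0.0016). DLC1, a tumour suppressor GAP of focal adhesions, fell to 56.4 ± 6.44 FPKM with fluvastatin, against 99.1 ± 11.3 FPKM in controls (SD, n = 3 each; limma adjusted p = 0.00612). ARHGAP19 and ARHGAP11A, both known from dividing cells, fell by 0.61 (limma adjusted p = 0.0077) and by 0.67 (limma adjusted p = 0.0101). ARHGAP21 rose by 0.61 ± 0.09 (limma adjusted p = 0.00521). Over all tested genes 27.7% passed in either direction, with 14.1% that rose and 13.6% that fell, so 7 of 19 in each of these lists is to be read against that background, and with depth as a covariate 0 of either list passed.

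Direct effectors carry the signal of the GTP-bound GTPases to actin and myosin. Of 15 tested, 0 rose and 1 fell, 14 missed the threshold, and the median log2 fold change was 0.07, in a range of -0.54 to 0.27. Over all tested genes 14.1% rose, 13.6% fell and the median was -0.01. ROCK1 and ROCK2, the kinases that raise myosin activity, were named outside the rule for named genes, after their values were seen. ROCK1 was at 34.4 ± 3.91 FPKM with fluvastatin and 28.7 ± 0.775 FPKM in controls (SD, n = 3 each; limma adjusted p = 0.135), and ROCK2 at 55.5 ± 5.26 and 52.8 ± 5.01 FPKM (fluvastatin and control; limma adjusted p = 0.687). DIAPH1, the formin that elongates actin filaments, was at 120.9 ± 9.9 FPKM with fluvastatin and 115.5 ± 13.6 FPKM in controls (limma adjusted p = 0.712). ANLN, the cytokinetic ring scaffold that binds RHOA, was at 177.3 ± 19.6 FPKM with fluvastatin and 222.1 ± 26.4 FPKM in controls (limma adjusted p = 0.111). The member that fell, RHPN1, a scaffold that binds RHOA, had 5.11 ± 0.885 FPKM with fluvastatin and 7.84 ± 0.279 FPKM in controls (limma adjusted p = 0.0185). Its call was lost without fluvastatin replicate 0 (0.0651) or 2 (0.0565), or control replicate 0 (0.0547) or 1 (0.0501), and with depth as a covariate (0.243).

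Further downstream, 3 of 10 tested genes for ROCK substrates and their targets rose, 2 fell and 5 did not pass, with a median log2 fold change of 0.24. The shares over all tested genes were 14.1% that rose and 13.6% that fell. EZR, which encodes the membrane-to-actin linker ezrin, was at 218.4, 233.7 and 238.2 FPKM in fluvastatin libraries, against 96.8, 87.6 and 84.4 FPKM in controls, and rose by 1.35 ± 0.09 (limma adjusted p = 3.94e-04). MSN, for the related moesin, rose by 0.60 ± 0.09 (limma adjusted p = 0.00416). LIMK2, a kinase that inactivates cofilin, fell by 0.53 on the log2 scale (limma adjusted p = 0.0177), a call lost without fluvastatin replicate 0 (0.0604) or 2 (0.0581). Between 2 and 5 of these genes passed with each library left out, with 2 without fluvastatin replicate 0 or 2 and 3 without fluvastatin replicate 1 or control replicate 0 or 1. With depth as a covariate 0 passed.

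Of 7 tested genes of isoprenoid supply, prenyl transfer and CAAX processing, 0 rose, 1 fell and 6 did not pass, with a median log2 fold change of -0.01. With 27.7% of all tested genes past the threshold and 13.6% that fell, 1 of 7 is near the background. The member that fell was FDPS, which makes farnesyl diphosphate, at 88.8 ± 4.49 FPKM with fluvastatin and 109.1 ± 3.58 FPKM in controls (SD, n = 3 each; limma adjusted p = 0.043). That call was lost with any library left out (0.0594 to 0.135), with scaling by a trimmed mean (0.0704) and with depth as a covariate (0.313).

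**Figure D4:**
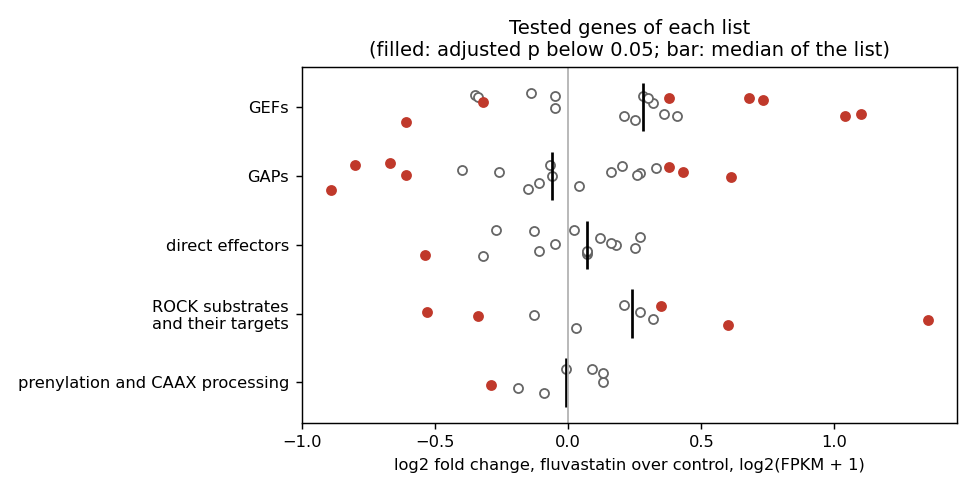
Log2 fold change, fluvastatin over control on log2(FPKM + 1), of each tested gene in the lists of GEFs, GAPs, direct effectors, ROCK substrates and CAAX processing, filled where the adjusted p was below 0.05, with a bar at the median of each list. The direct effectors lie between -0.54 and 0.27 with 1 call, while the GEFs and GAPs spread to both sides.

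The genes with the most similar profiles were sought among 10503 other tested genes whose mean reached 5 FPKM in either group, by the root mean square difference of centred log2(FPKM + 1) values over the 6 libraries. RHOA was nearest to MGST3, a microsomal glutathione transferase (0.04), MYO1E, a class I myosin (0.05), and SYT11, a synaptotagmin (0.05). RHOC was nearest to SPANXC, a cancer-testis gene with near-identical copies that may share reads (0.05), TSC22D1, a leucine zipper factor (0.08), and EZR (0.08). For RHOB the nearest 5 were non-coding RNAs listed at 0 in all controls, at 0.17 to 0.47. Among 9778 protein-coding genes above 0 in every library, a restriction chosen after the data were seen, RHOB was nearest to KLF2, a Krüppel-like factor (0.61), HAS2, a hyaluronan synthase (0.67), and LYPD3, a membrane-anchored protein (0.72). None of these genes was as close to RHOB as the named genes were to RHOA and RHOC on this measure. The measure mostly follows the log2 fold change, which was 5.14 for RHOB, 3.94 for KLF2, 3.90 for HAS2 and 3.73 for LYPD3. These distances therefore largely restate the size of the change and are no separate result.

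The cell line label was checked against its markers. Of 12 melanoma and neural crest markers 10 were measured, without MLANA and TYR, and 6 were high enough to test. SOX10 was at 67.1 to 75.4 FPKM in fluvastatin libraries and 20.1 to 26.1 FPKM in controls. MITF was at 6.1 to 7.04 FPKM with fluvastatin and 6.66 to 7.77 FPKM in controls. VIM, AXL, NGFR and NES were at 10.3 FPKM or more in every library. The pigment gene PMEL was below 1 FPKM in all 6 libraries. DCT, S100B and S100A1 reached at most 0.0586, 0.6 and 1.24 FPKM in any library. The label is thus borne out by only part of its markers. Of 12 markers of epithelial, blood, endothelial, liver and red cells 7 were measured, with a summed level of 4.43 to 6.44 FPKM in fluvastatin libraries and 0.911 to 1.2 FPKM in controls. Most of that sum was KRT14, at 4.99 ± 0.923 FPKM with fluvastatin and 0.691 ± 0.0936 FPKM in controls (SD, n = 3 each). CDH1 and CDH5 were listed at 0 in all 3 fluvastatin libraries, and EPCAM was at most 0.125 FPKM in any library. The part of these markers in the RHOA, RHOB and RHOC results was not tested.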

How the data were processed

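The submitters' processing notes name STAR, Cufflinks, Cuffdiff and hg38. The authors' deposited table gives 1 value per gene and library. No unit stands in its header. Since the authors used Cufflinks, and the values are fractional with library sums of 686133.2 to 729564.0, they were read as FPKM. Versions, annotation release, strand setting and rescaling are not given in the sources used here.

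Relative depth was estimated as the commonest ratio between low values of 2 libraries, over genes at 0 in at least 2 libraries, and gives no interval per gene. Genes reaching 1 FPKM in 3 or more libraries were tested with limma 3.58.1 in R 4.3.3 (lmFit, eBayes, no block) on log2(FPKM + 1), which understates the change of low genes, two-sided, at a Benjamini-Hochberg adjusted p below 0.05. Fold differences and SDs are on the FPKM scale. The fit was tested on simulated data. Locations, exons and coding sequences are from GENCODE 29 on GRCh38 and start sites from RefSeq (GRCh38.p14). Within-library values were compared with an exact permutation test.

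The genes and lists were chosen with earlier results of these data known. Up to 5 genes of a list were named by smallest adjusted p, up to 3 by level among those not past it, together with the most similar profiles and the neighbours of each locus. Alternatives tried were quantile normalization, trimmed-mean scaling (M-values), a pseudocount of 0.1, no low-value filter, a filter at a mean of 5 FPKM, eBayes with trend and robust on, a replicate block, depth as a covariate, protein-coding genes only and leaving out each library. Results for 4 of the gene lists are not reported here.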

Additional observations from a re-analysis of the deposited data

How the results depend on the processing

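RHOB stayed past the threshold in all 15 alternatives, with a log2 fold change of 4.84 to 5.26. RHOA and RHOC stayed past it in 14 of 15. With depth as a covariate RHOA was at 1.10 ± 0.20 (SE; limma adjusted p = 0.0857) and RHOC at 1.32 ± 0.21 (limma adjusted p = 0.0711). The count of genes past the threshold was then 71, against 3971 without that term. The cause was not tested, and every fluvastatin library was deeper than every control. With each library left out, RHOB ranged from 5.08 to 5.22, RHOA from 1.14 to 1.22, RHOC from 1.39 to 1.51 and the count of genes from 2340 (without fluvastatin replicate 0) to 3416. The RHOB share of the sum differed by 25.0 to 26.5 percentage points over its 9 alternatives, and the 3 ratios kept their direction in all 10 of theirs.

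Same-numbered libraries deviated together from their group means at most weakly (r of -0.002, 0.085 and 0.084 across genes for numbers 0, 1 and 2). Different-numbered libraries ranged from -0.136 to 0.058. The main fit did not take the numbers as pairs. With a replicate block the adjusted p was 9.24e-04 for RHOB, 0.00889 for RHOA and 0.00728 for RHOC, and 3154 genes passed. FDPS lost its call (0.0929), and 3 of 10 ROCK substrates and targets passed. Libraries numbered 1 and 2 resembled their own number most in both groups, while those numbered 0 did not, so a weak pairing is not excluded.

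DIAPH1 and ROCK2, which did not pass, changed sign. With depth as a covariate DIAPH1 was at -0.25. With each library left out, DIAPH1 ranged from -0.03 to 0.14 and ROCK2 from -0.01 to 0.12.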
